A study of Mus musculus with 4 samples.

Results

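Interferon-stimulated genes are the genes that cells switch on when interferon binds its receptor, and 39 of them were followed here by name, from the platform annotation of the array. Of the 39 listed genes, 37 had at least 1 probe set that names no other gene, 62 such probe sets in all, out of 18193 genes and 45037 probe sets measured. Isg15 was carried only by a probe set shared with the pseudogene Gm9706, 1 further probe set named both Trim30d and Trim30a, and these were kept apart, while no value is given for Ifi44. RNA came from CD4+/8+ double-positive (DP) cells, the immature T cells that carry both co-receptors, and was hybridized to 4 Affymetrix Mouse 430 2.0 arrays. Of these, 2 held DP cells of normal thymus with the genotype label WT, and 2 held DP cells with the genotype label T-ALL (T-cell acute lymphoblastic leukaemia) from a peripheral tumour (thymoma) that over-expresses Notch1-IC, the active intracellular part of the Notch1 receptor. The background label is WT C57/BLACK6 for all 4, and the sample type label describes all 4 as tumour, against the titles and genotypes of the normal ones. The promoter that drives Notch1-IC and the ages of the mice are not given in the labels used here, and no label says whether a group's arrays hold RNA of different mice. The p-values and standard errors thus rest on the spread between these arrays, pooled in part over probe sets of similar level. That spread may be technical. Normal cells came from thymus and tumour cells from a peripheral site, so tissue site and transformation cannot be told apart.

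Type I interferons act through the receptor chains IFNAR1 and IFNAR2 and the kinases JAK1 and TYK2, which activate STAT factors. STAT2 and IRF9 are subunits of ISGF3, the complex that binds the interferon-stimulated response element (ISRE) in promoters. Interferon gamma acts through IFNGR1 and IFNGR2, and its target promoters often hold the gamma-activated site (GAS). The induced proteins sense foreign RNA, block its translation, cut it, or restrict viruses at membranes, and some also act without infection. Mice of the C57BL/6 background carry defective Mx1 and Mx2 genes.

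The promoters of the listed genes were searched for the letters of the ISRE and the GAS. RefSeq promoter windows of GRCm38.p6, each 300 bases from 250 bases before to 50 bases after a start, were matched by symbol for 29 of the 39 genes. The ISRE was searched on both strands as GAAA, any 2 bases, then GAAA again, and 18 of the 29 (62.1%) held it, beside 3.99% of the 27025 genes with a window and 3.44% of all 32851 windows. The GAS letters TTCNNNGAA, which can overlap an ISRE match, stood in 10 of the 29 (34.5%), beside 9.55% of all genes. The stretches below, all before the start and read 5′ to 3′ on the strand of the gene, are shown because they stand before genes that behaved differently on the arrays, with the letters that match the ISRE on either strand in capitals.
Ifitm2: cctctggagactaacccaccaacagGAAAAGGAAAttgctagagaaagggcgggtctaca
Rsad2: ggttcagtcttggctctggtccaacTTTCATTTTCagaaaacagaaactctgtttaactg
Gbp3: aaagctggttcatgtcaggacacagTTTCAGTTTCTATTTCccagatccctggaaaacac
Ifit1: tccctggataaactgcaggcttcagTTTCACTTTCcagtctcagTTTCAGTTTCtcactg
Bst2: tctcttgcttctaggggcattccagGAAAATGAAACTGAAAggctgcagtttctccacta
Igtp: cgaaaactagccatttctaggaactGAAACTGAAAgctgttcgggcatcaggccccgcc
In GRCm38.p6 the Ifitm2 stretch is chr7:140955973-140956032 on the minus strand, that of Rsad2 chr12:26456538-26456597 (minus), that of Gbp3 chr3:142559974-142560033 (plus), that of Ifit1 chr19:34640760-34640819 (plus), that of Bst2 chr8:71537568-71537627 (minus) and that of Igtp chr11:58199497-58199555 (plus). On the arrays Ifitm2, Rsad2 and Gbp3 rose in the tumour cells, Ifit1 and Bst2 did not pass the test, and Igtp fell. Of 17 measured genes with the ISRE letters 10 rose and 1 fell, and of 10 without them 5 rose and 0 fell. Ifitm1, which rose by 3.32 on the log2 scale, was among those 5. Of all genes on the arrays 16.3% rose and 11.7% fell. A match is a description of letters and not evidence that a factor binds there.

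Between 51.0% and 59.0% of probe sets lay above the background level of their array, which was 12.3 to 17.8 intensity units and was set by bacterial control probe sets. The ratio of the 3′ to the 5′ beta-actin control probe set was 1.20 and 1.28 in the normal arrays and 2.46 and 2.53 in the tumour arrays, so RNA quality or labelling moved with the groups, and its part in the results was not tested. The bacterial BioB, BioC and BioD controls, added at hybridization, were higher in the tumour arrays, and scaling to them moved the median log2 difference of all genes from 0.088 to -0.51. On bulk arrays, fewer cells of a type and less RNA per cell cannot be told apart.

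The interferon-stimulated genes did not move as a block. Of the 37 genes, each read from its most intense probe set, 17 were higher in the tumour arrays, 2 were lower and 18 did not pass (limma with a variance prior that follows the level of expression, Benjamini-Hochberg adjusted p below 0.05 over all 45037 probe sets). The 3 Ifitm genes, Gbp3, Oas1a, Rsad2, Ifih1 and Parp14 led the rises, while the Ifit genes and most Oas genes were at similar or low levels in both groups. In the same fit 16.3% of all 18193 genes were higher and 11.7% lower, against 45.9% and 5.41% of the listed genes. The listed genes were more often detectable, as 75.7% of them and 51.2% of all genes lay above background on all 4 arrays. Among those so detected, 57.1% of 28 listed genes were higher and 7.14% lower, beside 27.5% and 21.4% of all genes. The median log2 difference was 0.58 for the 37 genes and 0.088 for all genes, and with scaling to the bacterial controls -0.02 and -0.51, with 12 of the 37 higher and 5 lower beside 6.99% and 27.9% of all genes. With limma's constant variance prior 0 of the 45037 probe sets passed (11337 at an unadjusted p below 0.05, among them the probe sets of 15 listed genes that were higher and 2 that were lower). When that prior was fitted on 1 probe set per gene, Parp14, Ifih1, Ifitm2 and Ifitm3 passed, beside 4.17% of all genes higher and 2.2% lower. By probe set, 21 of 62 were higher and 2 lower, beside 11.3% and 11.5% of all probe sets. The arrays of the 2 groups did not overlap for 29 of the 37 genes, 22 with the tumour arrays above and 7 below, beside 33.7% and 26.4% of all genes.

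**Figure D1:**
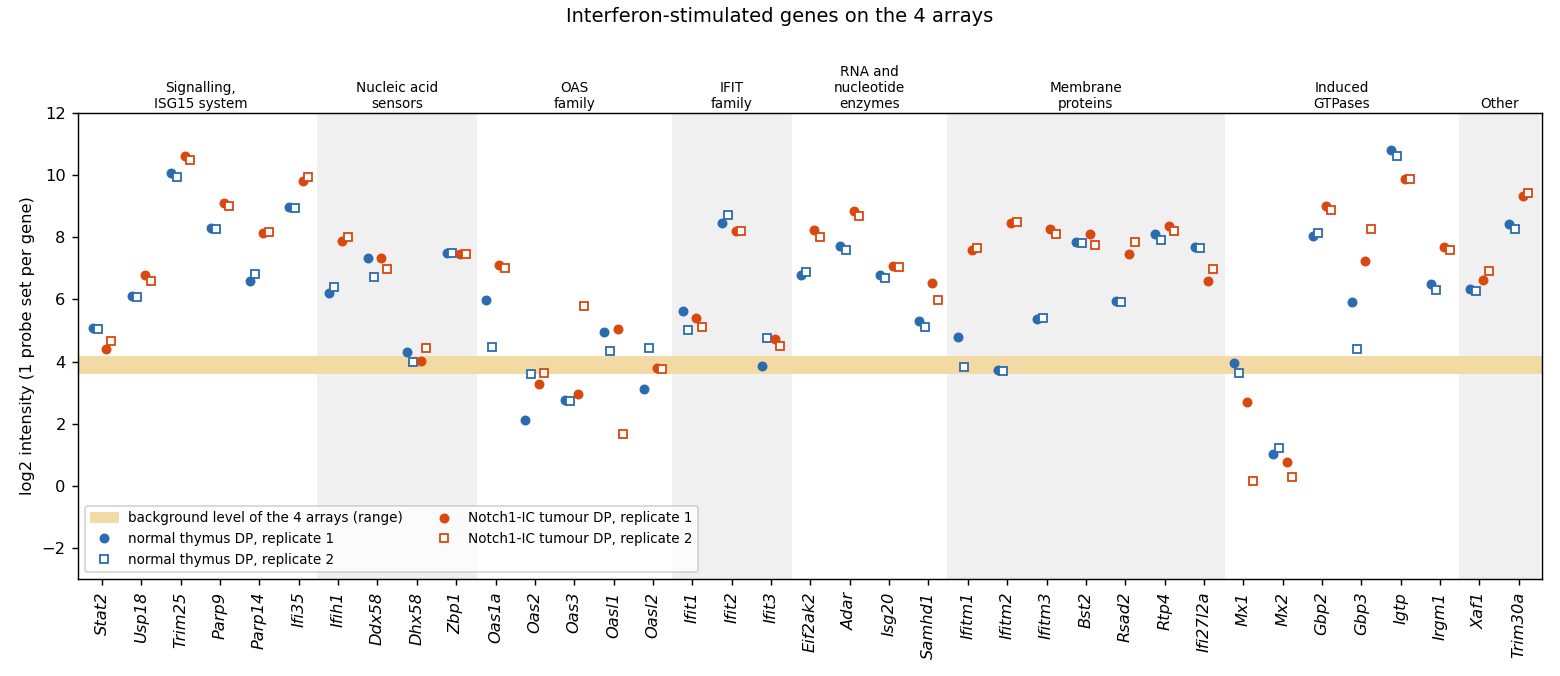
The log2 intensity of 37 interferon-stimulated genes (vertical axis, 1 probe set per gene) on 4 arrays, in groups by role, with the range of the arrays' background levels as a band. The Ifitm genes, Gbp3 and Rsad2 separate widely between normal (blue) and tumour (orange) arrays, while Oas2, Mx1 and Mx2 lie at or below background on all 4.

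The interferon-induced transmembrane proteins, small membrane proteins that block the entry of enveloped viruses, rose most when each gene was read from its most intense probe set. A dimmer probe set of Xaf1 rose as far (4.78). Ifitm2 measured 13.2 and 13.0 in the normal arrays and 352 and 356 in the tumour arrays. Of the normal arrays 1 lay at or below background, and the tumour arrays lay far above both. Its log2 difference was 4.75 ± 0.23 (± limma's moderated SE here and throughout, with 2 arrays in each group), a 27.0-fold rise (limma adjusted p = 8.04e-07). The moderated SE draws also on probe sets of similar level. The Ifitm2 arrays themselves lay closer together, with an SD of log2 values of 0.016 (normal) and 0.012 (tumour). Ifitm1 measured 27.6 and 14.2 in the normal arrays against 191 and 204, and rose by 3.32 ± 0.33 (adjusted p = 6.37e-05). Ifitm3, the member best known for restricting influenza virus, measured 41.6 and 42.1 against 309 and 275, and rose by 2.80 ± 0.19 (adjusted p = 5.06e-06). For all 3 genes the tumour arrays stood apart from the normal ones, and the rises remained with scaling to the bacterial controls, at 4.15, 2.72 and 2.20.

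The 3 genes lie side by side on chromosome 7, between Ifitm5 and Ifitm6 in the order of the RefSeq annotation. Ifitm6 also rose, by 1.96 (adjusted p = 0.0168), from 13.2 and 8.98 to 34.8 and 51.8, with both normal arrays at or below background, which makes it at least 3.03-fold higher. Ifitm5, known from bone, measured 24.4, 2.67, 2.67 and 1.88 over the 4 arrays in that order and did not pass (adjusted p = 0.457). Beyond the cluster, Pkp3, a desmosome protein, fell by 0.94 (adjusted p = 0.0028), while Nlrp6, Pgghg and Sigirr did not pass. B4galnt4, a glycosyltransferase next to Ifitm6, measured 16.1 and 11.98 against 58.6 and 20.9, so that its groups did not overlap, and did not pass (1.33 ± 0.58, adjusted p = 0.145). Psmd13, a proteasome subunit farther out on the other side, rose by 0.72 ± 0.09 (adjusted p = 0.000277). Ifitm6 and these neighbours are not among the 39 genes and were looked at after the Ifitm values were seen.

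**Figure D2:**
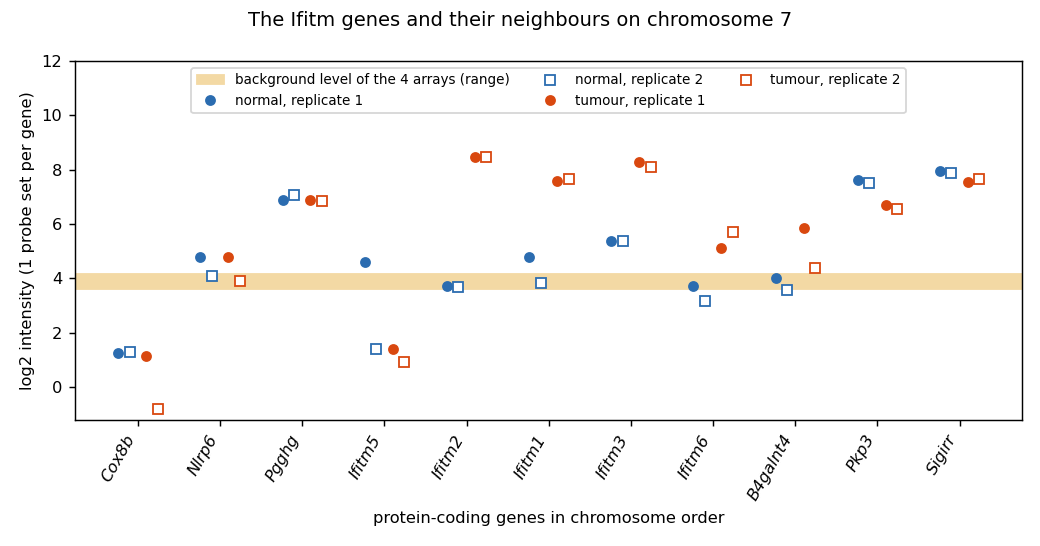
The log2 intensity (vertical axis) of the Ifitm genes and their protein-coding neighbours, in chromosome order along the horizontal axis and not to scale in distance, on the 4 arrays. Ifitm2, Ifitm1, Ifitm3 and Ifitm6 are higher on both tumour arrays than on the normal ones, as is B4galnt4, though it alone of these did not pass the test.

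Other membrane-associated members differed from the Ifitm genes and from each other. Rsad2 encodes viperin, an enzyme that makes a chain-terminating nucleotide. It measured 62.0 and 61.0 in the normal arrays and 176 and 232 in the tumour arrays, a rise of 1.72 ± 0.20 (adjusted p = 0.000194). A further probe set of Rsad2 rose by 1.35 ± 0.41 (adjusted p = 0.0422), and the third, near background, gave -0.11 ± 0.59 and did not pass, so that the mean of the 3 probe sets gave 0.99 (adjusted p = 0.0662). Bst2, or tetherin, which holds budding virus at the cell surface, measured 232 and 226 against 278 and 214, with overlapping groups (adjusted p = 0.763). Rtp4, a chaperone of receptors, gave 276 and 240 against 329 and 295, a difference of 0.27 ± 0.14 that did not pass (adjusted p = 0.206). Ifi27l2a, a mitochondrial or nuclear envelope protein strongly induced by type I interferon, went the other way. Its 208 and 202 in the normal arrays compared with 97.1 and 126 in the tumour arrays, and it fell by 0.89 ± 0.18 (adjusted p = 0.00550). Without normal replicate 1 or 2 the Ifi27l2a call was lost (adjusted p = 0.0672 and 0.0539).

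The interferon-induced GTPases split. Of 6 measured, 3 rose, 1 fell and 2 did not pass, beside 16.3% of all genes higher and 11.7% lower. Gbp3, a guanylate-binding protein that attacks vacuoles of intracellular pathogens, measured 60.7 and 21.4 in the normal arrays and 150 and 305 in the tumour arrays. The groups did not overlap but both were wide, and the difference was 2.57 ± 0.47 (adjusted p = 0.00288). Without tumour replicate 2 it was 2.06 and did not pass (adjusted p = 0.0712). Gbp2 was measured by a probe set of the _x_at class, which may also bind other transcripts, at 264 and 279 against 511 and 474, a rise of 0.86 ± 0.12 (adjusted p = 0.000478). Its other probe set, 196 and 202 against 270 and 262, rose by 0.42 ± 0.13 (adjusted p = 0.0483). The rise of Gbp2 did not pass with scaling to the bacterial controls (0.26, adjusted p = 0.142), under which that second probe set gave -0.18.

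Igtp and Irgm1 belong to the immunity-related GTPases, which control vacuoles and autophagy. Irgm1 rose by 1.26 ± 0.18 (adjusted p = 0.000585), from 90.4 and 78.5 to 208 and 195. Igtp fell by 0.83 ± 0.09 (adjusted p = 0.000112), from 1803 and 1579 to 947 and 949. For each of these genes the arrays of a group lay close together and away from the other group, and both directions held with scaling to the bacterial controls (0.65 and -1.43). Of 3 further members of that family on the list of other interferon-induced genes, Irgm2, the direct neighbour of Igtp on chromosome 11, rose by 1.69 ± 0.23 (adjusted p = 0.000459) and Iigp1 by 4.37 ± 0.21 (adjusted p = 6.75e-07), while Ifi47, at 998 and 1038 against 975 and 1004, did not pass (adjusted p = 0.806). Mx1 and Mx2, dynamin-like antiviral GTPases, lay at or below background on all 4 arrays, and no fold is given for them.

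The 2′-5′ oligoadenylate synthetases make the messenger that activates the RNA-cutting enzyme RNase L. Oas1a measured 63.7 and 22.3 in the normal arrays and 137 and 128 in the tumour arrays, and rose by 1.81 ± 0.42 (adjusted p = 0.0111). The tumour arrays lay close together and above 2 unequal normal arrays. Without tumour replicate 1 or 2 the call was lost (adjusted p = 0.105 and 0.0974), and without normal replicate 2 the difference was 1.05. With scaling to the bacterial controls Oas1a just missed the threshold (1.21, adjusted p = 0.0541). The mouse genome holds several close copies of Oas1a, and which of them the probe set binds was not tested. Oas2 lay at or below background on all 4 arrays. Oas3 measured 6.80, 6.65 and 7.80 on the normal arrays and tumour replicate 1, all below background, and 55.4 on tumour replicate 2 (adjusted p = 0.299). Oasl1, at 31.1 and 20.2 against 32.8 and 3.20, and Oasl2, at 8.67 and 21.9 against 13.9 and 13.5, overlapped between groups and did not pass. Without tumour replicate 1, which leaves a lone tumour array assumed to vary like the normal ones, Oas3 passed as higher (adjusted p = 0.0245) and Oasl1 as lower (adjusted p = 0.0397).

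The Ifit proteins bind viral RNA and block its translation, and their genes are among those most strongly induced by type I interferon in many cells. Of the 3 genes 0 passed, beside 16.3% of all genes higher and 11.7% lower. Ifit1 measured 49.3 and 32.1 in the normal arrays and 41.8 and 34.5 in the tumour arrays, with overlapping groups and a difference of -0.06 ± 0.35 (adjusted p = 0.933). Ifit2 measured 350 and 417 against 295 and 297, so that the tumour arrays lay below the normal ones, by -0.37 ± 0.13 (adjusted p = 0.0740), and it passed as lower with scaling to the bacterial controls (-0.97, adjusted p = 0.000437) and without the dimmest 30% of probe sets. Ifit3 measured 14.5 and 27.1 against 26.7 and 22.8, with overlapping groups (adjusted p = 0.738).

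**Figure D3:**
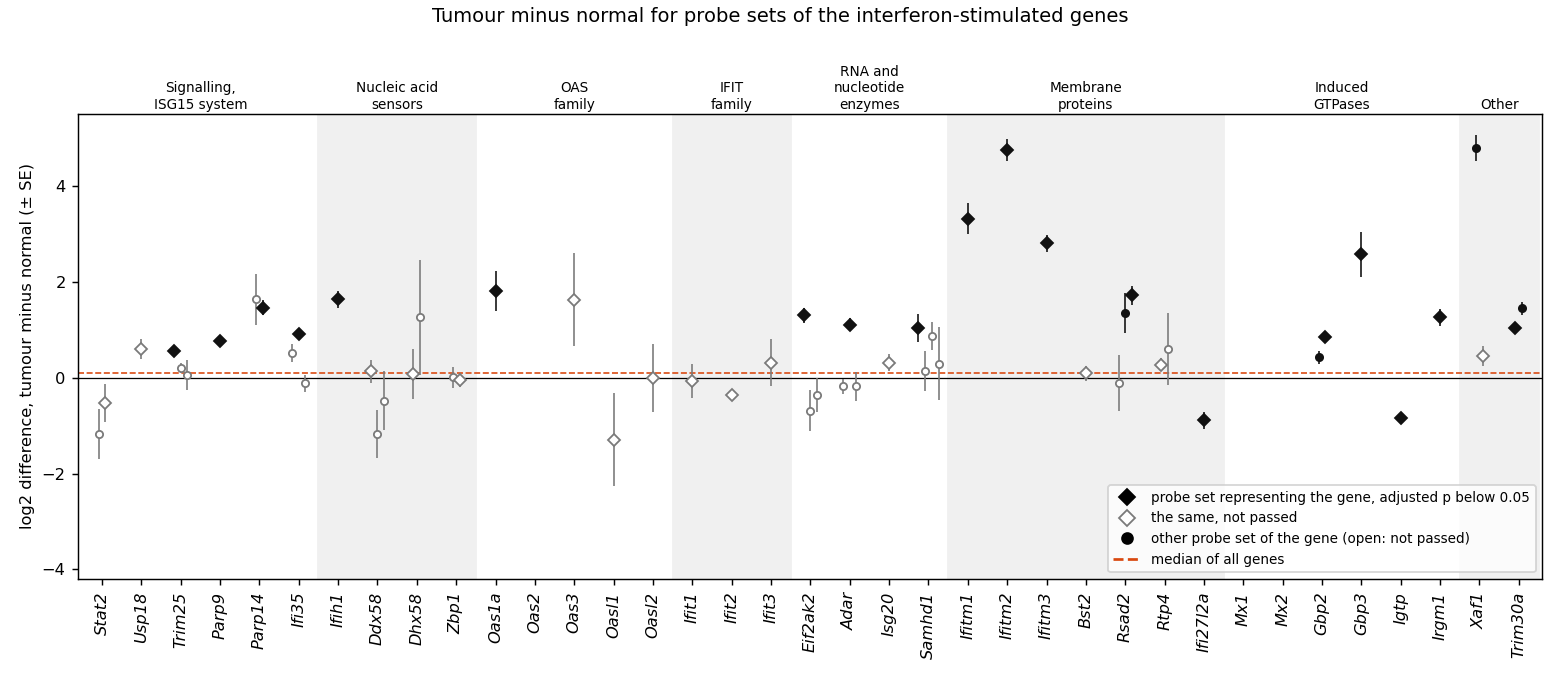
The log2 difference, tumour minus normal, with its standard error, for each member probe set other than 5 that lie at or below background on all 4 arrays, in groups by role. Filled symbols passed at an adjusted p below 0.05, and the dashed line is the median of all genes, 0.088. The Ifitm genes and 1 probe set of Xaf1 stand highest, and the Ifit genes lie near the line.

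Of the 4 nucleic acid sensors only Ifih1 passed, beside 16.3% of all genes higher and 11.7% lower. Ifih1 encodes MDA5, a helicase that senses long double-stranded RNA. It measured 73.7 and 85.0 in the normal arrays and 234 and 259 in the tumour arrays, a 3.11-fold rise (log2 1.64 ± 0.17, adjusted p = 9.76e-05). Ddx58, or RIG-I, the sensor of RNA ends, measured 162 and 106 against 162 and 127 on its most intense probe set, with overlapping groups (adjusted p = 0.772), and its other probe sets gave -1.18 ± 0.50 and -0.48 ± 0.61 without passing. Dhx58, or LGP2, is a related helicase that tunes both sensors. Its most intense probe set lay close to background on all 4 arrays, at 19.7, 15.9, 16.1 and 21.7 (adjusted p = 0.949). Of the others, 1 lay at or below background on all 4 arrays and 1 lay above it on tumour replicate 2 alone. Neither passed. Zbp1, which senses Z-form nucleic acids and triggers cell death, was nearly equal on the 4 arrays at 181 and 180 against 175 and 175 (log2 difference -0.04 ± 0.15, adjusted p = 0.883). With scaling to the bacterial controls the Zbp1 difference was -0.65 and passed as lower (adjusted p = 0.00801).

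Enzymes that act on RNA or nucleotides rose in part. Eif2ak2 encodes PKR, the kinase that stops translation when it meets double-stranded RNA. Its most intense probe set measured 110 and 117 in the normal arrays and 300 and 258 in the tumour arrays, a rise of 1.30 ± 0.16 (adjusted p = 0.000228). The other 2 probe sets of Eif2ak2 gave -0.69 ± 0.42 and -0.36 ± 0.36 and did not pass, and the mean of the 3 gave 0.08 (adjusted p = 0.873). Adar, which edits adenosines in double-stranded RNA, showed the same split. Its most intense probe set, at 210 and 194 against 460 and 412, rose by 1.11 ± 0.13 (adjusted p = 0.000175), while 2 others gave -0.18 ± 0.16 and -0.18 ± 0.30 and did not pass, and the mean of the 3 was 0.25 (adjusted p = 0.374). Samhd1, which breaks down deoxynucleotides, measured 39.9 and 35.0 against 92.4 and 63.8, a rise of 1.04 ± 0.29 (adjusted p = 0.0295). A second Samhd1 probe set, at 35.7 and 42.2 against 83.8 and 60.5, gave 0.87 ± 0.29 and just missed (adjusted p = 0.0604). The rest of its 5 probe sets, all dim, gave 0.52 ± 1.14, 0.14 ± 0.42 and 0.29 ± 0.76 and did not pass. With the mean of the 5 the call was lost. The Samhd1 call was lost without normal replicate 1, normal replicate 2 or tumour replicate 1 (adjusted p = 0.106, 0.160 and 0.167) and with scaling to the bacterial controls (0.44, adjusted p = 0.316). Isg20, an exonuclease, gave 110 and 104 against 134 and 131 and did not pass (log2 difference 0.31 ± 0.18, adjusted p = 0.277).

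Among genes of signalling and of the ISG15 system, 4 of 6 rose and 0 fell. All 6 lay above background on all 4 arrays, and of all genes so detected 27.5% rose and 21.4% fell. Parp14, a mono-ADP-ribosyltransferase, rose from 96.4 and 112 to 284 and 288 (log2 1.46 ± 0.16, adjusted p = 0.000111). Parp9, its partner, rose from 318 and 310 to 549 and 519 (0.77 ± 0.11, adjusted p = 0.000675), and by 0.16 with scaling to the bacterial controls, where it did not pass (adjusted p = 0.313). For both genes the tumour arrays lay above the normal ones with little spread within a group. Ifi35 rose by 0.92 ± 0.10 and Trim25, the ubiquitin ligase that activates RIG-I, by 0.55 ± 0.09, on probe sets of the _s_at class that may also bind other transcripts. Without that class the differences were 0.51 (adjusted p = 0.0744) for Ifi35 and 0.21 (adjusted p = 0.233) for Trim25, and Trim25 turned to -0.05 with scaling to the bacterial controls. The third probe set gave -0.11 ± 0.18 for Ifi35 and 0.05 ± 0.31 for Trim25 and did not pass. Both calls were lost with the mean of the probe sets of each gene. Usp18, which removes ISG15 and damps the receptor, measured 69.1 and 67.9 against 111 and 96.2 and did not pass (0.60 ± 0.21, adjusted p = 0.0775). Stat2, a subunit of ISGF3, measured 33.8 and 33.2 against 21.1 and 25.5 (log2 difference -0.53 ± 0.39, adjusted p = 0.417), and its other probe set gave -1.18 ± 0.51 (adjusted p = 0.149). The probe set shared by Isg15, a ubiquitin-like modifier, and Gm9706 measured 155 and 161 in the normal arrays and 237 and 240 in the tumour arrays. It was higher by 0.59 ± 0.14 (adjusted p = 0.0133), and by -0.01 with scaling to the bacterial controls, and how much of it is Isg15 cannot be told apart.

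The 2 members outside these groups were Xaf1, an antagonist of the apoptosis inhibitor XIAP, and Trim30a, which damps NF-kB signalling. One Xaf1 probe set measured 16.3 and 10.4 in the normal arrays, 1 of them below background, and 362 and 355 in the tumour arrays, a rise of 4.78 ± 0.27 (adjusted p = 2.27e-06). The other, which represents the gene by its higher mean, gave 81.4 and 77.1 against 98.1 and 120 and did not pass (0.45 ± 0.21, adjusted p = 0.173). The large rise of Xaf1 thus rests on 1 of 2 probe sets, and the mean of both gave 2.62 (adjusted p = 0.000286). Trim30a rose on both of its probe sets, from 341 and 310 to 644 and 685 (1.03 ± 0.11, adjusted p = 0.000104) and from 164 and 162 to 405 and 487 (1.45 ± 0.14, adjusted p = 5.31e-05). The probe set named for both Trim30d and Trim30a was higher by 0.99 ± 0.22 (adjusted p = 0.00979). Among the 15 listed genes that more than 1 probe set measured, 0 had calls in both directions.

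The rest of the pathway was read from 5 further lists with 94 measured genes, of which 28 (29.8%) rose and 17 (18.1%) fell (limma, adjusted p below 0.05). Of all genes 16.3% rose and 11.7% fell. Among all genes above background on all 4 arrays the shares were 27.5% and 21.4%. Of the 94, 70 were so detected, and shares within those 70 were not counted. With scaling to the bacterial controls the split was 14 higher and 32 lower, beside 6.99% and 27.9% of all genes. Of 9 measured interferon ligand genes 1 passed. Ifnz, a type I interferon of the mouse, measured 48.1 and 32.6 against 67.1 and 87.1 (0.95 ± 0.30, adjusted p = 0.0499). Ifnb1 and Ifng lay at or below background on all 4 arrays, and Ifna4 lay above it on the tumour arrays alone, at 20.8 and 14.5, without passing (adjusted p = 0.0889).

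Of the 6 interferon receptor genes measured, 3 fell and 0 rose, beside 11.7% and 16.3% of all genes. Of all genes above background on all 4 arrays 21.4% fell and 27.5% rose. Ifnar1 measured 328 and 348 in the normal arrays and 205 and 155 in the tumour arrays, a fall of 0.92 ± 0.16 (adjusted p = 0.00219). Ifngr1 fell by 1.36 ± 0.08 (adjusted p = 2.70e-06), from 1930 and 1952 to 773 and 738. Ifngr2 fell by 1.24 ± 0.29 (adjusted p = 0.0116), from 68.2 and 71.4 to 31.1 and 28.2. In all 3 the groups were well apart. Ifnar2, at 401 and 460 against 349 and 418, Il10rb, and Ifnlr1, close to background, did not pass (adjusted p = 0.448, 0.672 and 0.319).

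Behind the receptors, Jak1 fell by 1.60 ± 0.08 (adjusted p = 1.10e-06), from 2585 and 2364 to 822 and 811, while Tyk2 rose by 1.16 ± 0.19 (adjusted p = 0.00182), from 104 and 77.5 to 192 and 208. Of the 16 measured genes of this list, all above background on all 4 arrays, 7 (43.75%) rose and 5 (31.25%) fell. The shares of all genes so detected were 27.5% and 21.4%. Irf9, the DNA-binding subunit of ISGF3, rose by 0.61 ± 0.17 (adjusted p = 0.0246), from 110 and 119 to 182 and 168, and by 0.01 with scaling to the bacterial controls. Irf7, which amplifies the type I response, measured 68.8 and 51.4 against 76.2 and 50.8 and did not pass (adjusted p = 0.920). Differences of at least 1 on the log2 scale passed for 10 genes of the list, 5 higher and 5 lower. Besides Tyk2, the higher ones were Socs3, a feedback inhibitor of cytokine receptors (2.68 ± 0.14), Irf8, a factor of myeloid and B cells (2.17 ± 0.30), Irf1, an activator downstream of interferon gamma (1.62 ± 0.11), and Ptpn2, a phosphatase that damps JAK signalling (1.39 ± 0.08). Besides Jak1, the lower ones were Pias1 (-1.43 ± 0.10), Socs1, a main inhibitor of interferon receptor signalling (-1.38 ± 0.13), the phosphatase Ptpn6 (-1.32 ± 0.10) and Irf3, which switches on interferon genes (-1.05 ± 0.11). Of 15 genes that sense nucleic acids upstream of interferon 5 (33.3%) rose and 0 fell. Of all genes 16.3% rose and 11.7% fell, and of those above background on all 4 arrays 27.5% and 21.4%. The risers included Unc93b1, a chaperone of Toll-like receptors (2.35 ± 0.33), Sting1 (2.34 ± 0.19), Traf6 (1.45 ± 0.13) and Cgas, which makes the ligand of Sting1 (1.03 ± 0.25). The median log2 difference of the 15 was 0.56, and -0.04 with scaling to the bacterial controls, beside -0.51 for all genes. Socs3 and Irf3 were read from probe sets of the _x_at class and Sting1 from the _s_at class. Both classes may also bind other transcripts.

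**Figure D4:**
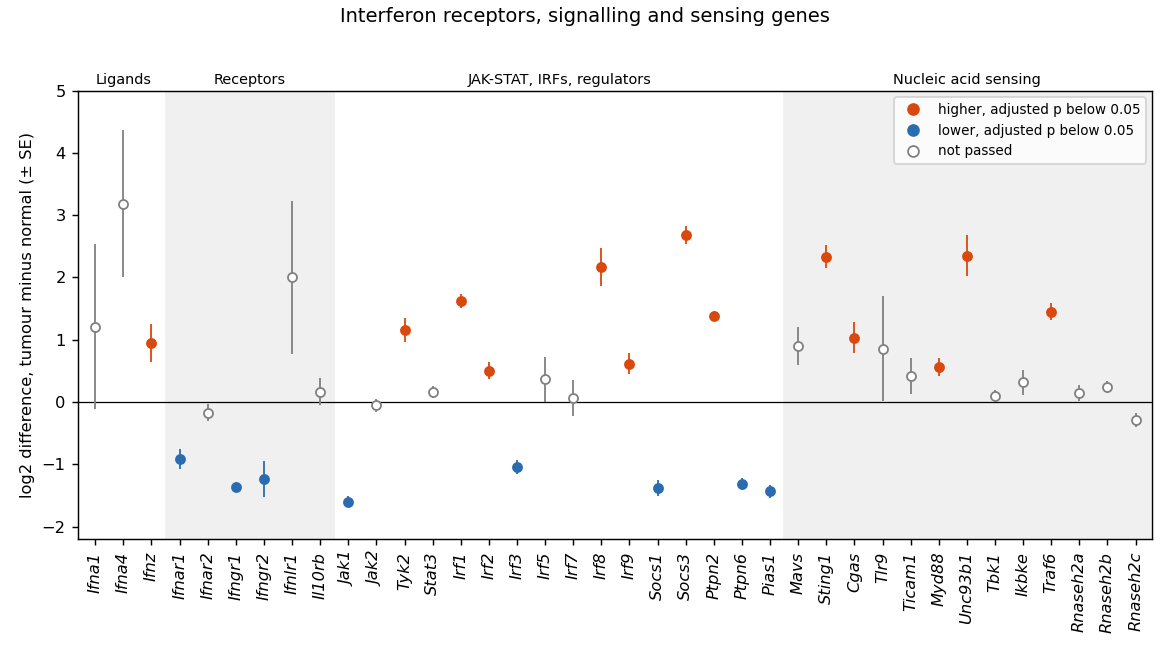
The log2 difference, tumour minus normal, with its standard error (vertical axis), for measured interferon ligands, receptors, signalling and sensing genes above background on at least 1 array. Orange symbols passed as higher and blue as lower. Ifnar1, Ifngr1, Ifngr2, Jak1, Irf3 and Socs1 are lower, and Irf1, Irf8, Socs3, Unc93b1 and Sting1 are higher.

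Among 48 measured interferon-induced genes that are not in the list of 39, 15 (31.25%) rose, 9 (18.75%) fell and 24 did not pass. Of all genes 16.3% rose and 11.7% fell. Of the 48, 36 lay above background on all 4 arrays, and among all genes so detected 27.5% rose and 21.4% fell. In the list of 48, 1 gene that passed, Casp4, lay at or below background on all 4 arrays. Large rises were those of Ifi202b and Ifi204, DNA-binding proteins of the Ifi200 family, neither of which rose above background in a normal array. They were at least 104-fold and 15.3-fold higher. Iigp1 was 20.7-fold higher, with 23.3 and 32.3 against 597 and 539. Lgals9, or galectin 9, fell by 1.44 ± 0.08 (adjusted p = 2.39e-06) and Epsti1 by 1.32 ± 0.09 (adjusted p = 4.94e-06). Ly6e, a surface protein, fell by 0.69 ± 0.06 (adjusted p = 2.47e-05), also on a probe set of the _s_at class.

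Markers of other cells moved with the groups, and many interferon-stimulated genes are also expressed by macrophages, so these values stand beside all rises above. Of all genes 16.3% were higher and 11.7% lower, and of those above background on all 4 arrays 27.5% and 21.4%. Of 14 measured macrophage and monocyte markers 10 were higher and 0 lower, and their summed intensity was 140 and 180 in the normal arrays and 3379 and 3547 in the tumour arrays. Csf1r measured 20.5 and 17.9 against 550 and 625, and C1qa was at least 16.3-fold higher, while Cd68, Fcgr1, Itgam and Cd14 did not pass. Of 10 neutrophil markers 8 were higher (sums 189 and 249 against 2162 and 2225), of 10 dendritic cell markers 5 (287 and 272 against 984 and 1272), and of 9 NK and cytotoxic markers 5 (1227 and 1202 against 5576 and 5570), with 0 lower in each. The NK and cytotoxic sum is mostly Gzma, at 1034 and 1035 against 5030 and 5040. In the tumour arrays Cxcr2 of the neutrophil list, Ciita and Zbtb46 of the dendritic list and Ncr1 of the NK list lay at or below background. Of 8 plasmacytoid dendritic cell markers 2 were higher and 3 lower, and Siglech, a defining one, measured 18.2 and 13.5 against 6.32 and 24.4. That list holds Bst2, itself a listed interferon-stimulated gene, and its sum (16305 and 20113 against 4733 and 5295) is mostly Ccr9 and Ly6d, which DP cells express. Of 7 B cell markers 0 were higher and 2 lower (sums 5429 and 4772 against 2785 and 2607), with Cd79a, Pax5 and Ebf1 at or below background in the tumour arrays. The B cell sum is mostly Ighm, at 5040 and 4425 against 2662 and 2463. Of 3 erythroid markers 1 was higher (sums 21.7 and 12.5 against 95.3 and 135), and of 8 stromal and endothelial markers 1 was higher and 2 lower (451 and 372 against 325 and 326). The part of these cells in the rises of the interferon-stimulated genes was not tested.

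Markers of the T lineage were measured in the same way, and all lay above background on all 4 arrays. Among all genes so detected 27.5% were higher and 21.4% lower. Of 12 DP thymocyte markers 10 were lower and 1 higher, with a sum of 69171 and 69446 in the normal arrays and 32271 and 32871 in the tumour arrays, and 0 of them at or below background in either group. Cd8a, a defining marker, measured 9074 and 8383 against 1287 and 1310, so the labelled cell type was visible in the tumour arrays at a lower level. Of 9 mature T cell markers 6 were higher and 2 lower (sums 13200 and 12625 against 11878 and 11377). Klf2, a factor of mature and resting T cells, measured 63.8 and 78.2 against 570 and 611, the largest rise of that list. The 2 lower ones were Cd69, at 259 and 304 against 70.7 and 85.5, and Cd52, at 7822 and 7400 against 2834 and 2609.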

How the data were processed

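Per the labels' protocols, 100 ng of total RNA per sample was amplified with a 3′ kit for the arrays. The authors deposited 1 linear intensity per probe set and array (0.08 to 19270). The tool named per the submitters' processing notes is RMA (no version). How probes were summarised is not settled, since the deposited values are linear and reach below 1, and the 4 arrays share nearly the same distribution, which hides a shift common to all genes. Genes were named from the platform annotation (34945 probe sets with 1 symbol, 932 with several, 9160 with none), and all 37 measured members matched RefSeq by Entrez number. Log2 values, with no offset or filter, of 45037 probe sets (64 controls left out) were fitted with limma 3.58.1 in R 4.3.3 (lmFit, eBayes with trend and robust). The prior follows the level because replicates spread more at low levels (median SD on the log2 scale 1.31 in the dimmest 25% of probe sets, 0.10 in the brightest 25%). In simulated data with 200 of 45037 probe sets changed by 1, 2 or 4 (log2), this fit recovered 100% at each size with 7 false calls, and the constant prior 0% with 0 false calls. The simulated noise was set by the level alone, as the level-following prior assumes, so the simulation cannot decide between the priors. All changed probe sets had a mean log2 of at least 7, so it does not cover dimmer genes. An array's background is its highest value among 27 Bacillus control probe sets. Where both arrays of a group lie there, "at least N-fold" compares the other group with that level. The members, lists (5 of the pathway, 10 of markers), test and alternatives were chosen with earlier results of these data known. The text names all measured members by role, and of other lists the receptors, Irf7, Irf9 and up to 4 called genes with the largest difference in each. Names outside that rule (among them Tyk2, Ptpn2, Pias1, Ptpn6, Irf3, Socs1, Irgm2, Ifi47, Lgals9, Epsti1, Ly6e, B2m, Ifi27 and the Psmb, Tap and neighbouring genes) were chosen after their values were seen.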

Additional observations from a re-analysis of the deposited data

How the results depend on the processing

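The call counts of the 37 genes (17 higher, 2 lower) and 62 probe sets (21 and 2) stayed within 1.5 times under renewed quantile normalization, median scaling, the offset of 16 and omission of _s_at and _x_at probe sets, and those of the genes also with the fit on 1 probe set per gene and the mean of probe sets. The filters at the 30th and 50th percentile gave 17 and 18 genes higher and 3 lower. The constant prior gave 0 calls among members and among the 94 pathway genes, and fitted on 1 probe set per gene, an alternative chosen after seeing the data, 4 higher and 0 lower members and 11 higher and 7 lower pathway genes. An adjusted p below 0.01 gave 15 higher and 2 lower member genes. With a log2 difference of at least 1 required, 0 member genes and 0 probe sets were lower, and 9 pathway genes. Scaling to the bacterial controls gave 5 genes and 11 probe sets lower, and 14 pathway genes higher and 32 lower. Leaving out 1 array gave 15 to 16 member genes higher and 1 to 3 lower, 17 to 19 probe sets higher and 1 to 3 lower, and 20 to 22 pathway genes higher and 15 to 16 lower.

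The median difference of the 37 genes (0.58) was -0.018 with scaling to the bacterial controls, 0.68 with the 50th percentile filter, 0.50 with the offset, 0.44 with the mean of probe sets, 0.45 without _s_at and _x_at probe sets, and 0.43 to 0.75 without 1 array. With scaling to the bacterial controls the sign turned for Usp18 (-0.0056), Trim25 (-0.049), Ddx58 (-0.47), Dhx58 (-0.53), Ifit3 (-0.29), Isg20 (-0.29), Bst2 (-0.51), Rtp4 (-0.33) and the representative probe set of Xaf1 (-0.15). Ddx58 was -0.51 with the mean of probe sets. Leaving out 1 array turned the sign of genes that had not passed: Ddx58 (-0.18 to 0.44), Dhx58 (-0.14 to 0.29), Oasl1 (-2.97 to 0.39), Oasl2 (-0.67 to 0.66), Ifit1 (-0.37 to 0.25), Ifit3 (-0.14 to 0.77) and Bst2 (-0.10 to 0.28). The share of promoters with ISRE letters was 72.4% with the shorter letters GAAANNGAA (9.76% of all genes) and 48.3% before the start only.

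The normal and tumour arrays share replicate numbers. Over 6364 genes with a mean log2 of at least 7, arrays of the same number deviated from their group means with a correlation of 0.25. With the number as a replicate block, 16 genes were higher and 3 lower (23 and 3 probe sets), Gbp3 was lost (adjusted p = 0.383) and Ifit2 passed as lower (adjusted p = 0.0166). Replicates of dim genes spread widely, which limits what can be said of them. The causes of these shifts were not tested.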

Other observations

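Interferon-induced genes of antigen presentation, outside the list of 39, moved in both directions. Tap1, a peptide transporter chain, rose by 0.62 ± 0.09 (limma adjusted p = 0.000899) and Psmb9, an immunoproteasome subunit, by 0.50 ± 0.10 (adjusted p = 0.00436), whereas their partners Tap2 and Psmb8 fell by 0.80 ± 0.08 (adjusted p = 7.63e-05) and 0.64 ± 0.06 (adjusted p = 7.28e-05). Psmb10, the remaining immunoproteasome subunit, rose by 0.66 ± 0.10 (adjusted p = 0.00117). With scaling to the bacterial controls Tap1, Psmb10 and Psmb9 were at 0.02, 0.06 and -0.10, and the falls remained, at -1.40 and -1.24. B2m, the common light chain of class I molecules, measured 5069 and 5554 in the normal arrays and 5754 and 5938 in the tumour arrays and did not pass (adjusted p = 0.154).

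Ifi27, the direct neighbour of Ifi27l2a on chromosome 12, fell as Ifi27l2a did, by 0.78 ± 0.10 (adjusted p = 0.000282), from 1007 and 909 to 562 and 554. Ifi27l2b, on the other side of Ifi27, stayed near background at 14.6 and 15.8 against 14.1 and 18.3. Igtp and Irgm2, also direct neighbours, differed in opposite directions.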
